A study of Zea mays with 9 samples.

Results

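The 5 genes described here carry the last steps of fermentation in maize (Zea mays): the pyruvate decarboxylase genes pdc2 (GRMZM2G038821) and pdc3 (GRMZM2G087186), the alcohol dehydrogenase genes adh1 (GRMZM2G442658) and adh2 (GRMZM2G098346), and the lactate dehydrogenase gene LDH (GRMZM2G128929). They were chosen by their enzymes, with earlier results of these data known, and are 5 of the 39301 genes in the deposited table. All 5 were among the 22379 genes expressed highly enough to be tested. Germinating seeds were profiled by RNA sequencing in 3 groups of 3 biological replicates. The NaCl+MT seeds received salt and, by the series title, exogenous melatonin, an indoleamine; the NaCl seeds received salt; the CK seeds are labelled with the usual abbreviation for an untreated control. The labels give no cultivar, dose, duration or order of treatment, and do not say which part of the seed was taken or how many seeds made 1 replicate.

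When respiration cannot reoxidise all the NADH of glycolysis, plant cells can turn pyruvate into ethanol or lactate. Pyruvate decarboxylase removes carbon dioxide from pyruvate and leaves acetaldehyde, alcohol dehydrogenase reduces acetaldehyde to ethanol, and lactate dehydrogenase reduces pyruvate directly to lactate; both reductions return NAD+ to glycolysis. In maize, adh1 and adh2 are the classical genes induced by lack of oxygen in roots, and the proteins made by oxygen-starved maize seedlings include sucrose synthase and several glycolytic enzymes beside alcohol dehydrogenase and pyruvate decarboxylase.

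Values are FPKM, fragments per kilobase of gene and per fixed number of mapped fragments, as computed by the authors, so levels can be compared between genes. Fold changes are differences of log2(FPKM + 1) from limma, with p-values adjusted by Benjamini-Hochberg over all tested genes and a threshold of 0.05. Read totals are not given; from the steps between low values, depth relative to CK replicate 1 was 0.537 in NaCl replicate 3 and between 0.891 and 1.28 in the others, except that CK replicate 2 came out at 0.908 or at 1.82, since the step could not be settled to a factor of 2. NaCl replicate 3 also listed the most genes at 0 (12558), whereas all others had between 9986 and 10802. NaCl replicate 1 had the largest share of its FPKM sum in its 20 highest genes, 11.5% against 6.71% to 9.08%. Isocitrate lyase icl1 (GRMZM2G056369), an enzyme of lipid use in germinating seeds, averaged 2306, 2083 and 2107 FPKM in NaCl+MT, NaCl and CK seeds. The endosperm storage protein gene zp27 (GRMZM2G138727) averaged 0.573, 0.638 and 0.560 FPKM in the same groups. The gene rbcs1 (GRMZM2G098520), for the small subunit of the photosynthetic enzyme Rubisco, averaged 1.58 FPKM in NaCl+MT, 0.291 in NaCl and 0.862 in CK seeds. It was higher in NaCl+MT than in NaCl by 1.01 on the log2 scale without overlap (limma adjusted p = 0.0105). Only through NaCl+MT and CK libraries was rbcs1 expressed highly enough to be tested, so no conclusion is drawn from that test. The part of rbcs1 in the results was not tested.

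The comparison of NaCl with CK asks how the fermentation genes differed in seeds germinating with salt. The decarboxylase gene pdc2 was 10.8-fold higher and adh1 3.50-fold higher in mean FPKM with NaCl, and adh2 fell to 0.191 of its CK mean, while pdc3 and LDH did not pass the test. Thus 2 of the 5 rose and 1 fell, where 26.0% of all tested genes passed in either direction, 13.6% higher and 12.4% lower. The median log2 fold change of the 5 was -0.04, beside 0.03 over all tested genes. For these same 3 members NaCl libraries lay wholly outside the CK range, as was the case for 40.9% of all tested genes.

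**Figure D1:**
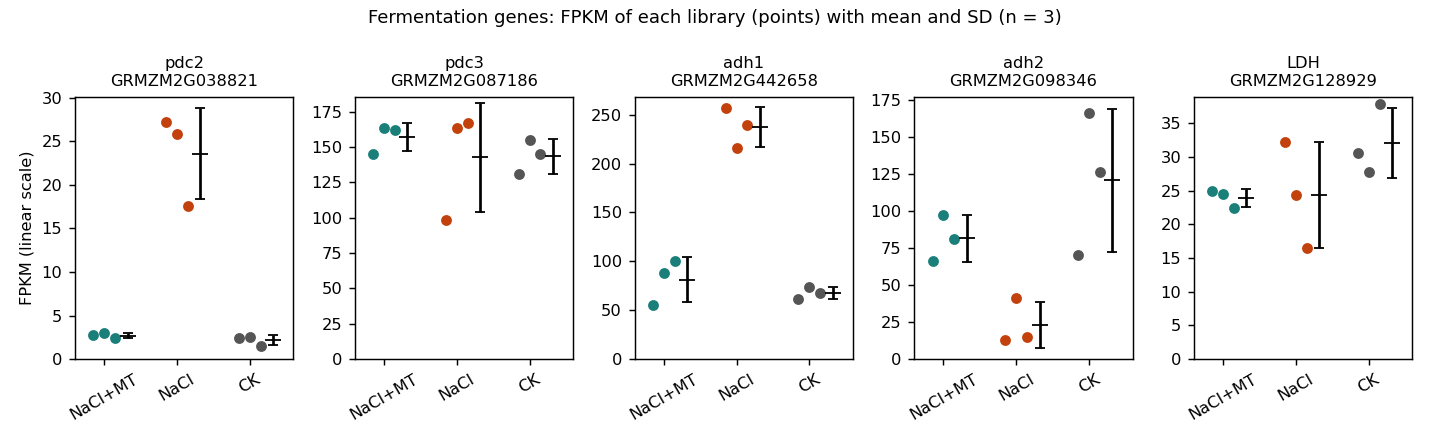
FPKM of the 5 fermentation genes (vertical axes, linear, each from 0) in NaCl+MT, NaCl and CK seeds, with a point for each library in the order of its replicate number and bars for mean ± SD (n = 3). pdc2 and adh1 are highest and adh2 is lowest in NaCl, whereas the groups of pdc3 overlap.

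Of the pyruvate decarboxylase genes, pdc2 had 2.74, 2.97 and 2.38 FPKM in NaCl+MT seeds, 27.2, 25.8 and 17.6 in NaCl seeds, and 2.44, 2.59 and 1.53 in CK seeds. The 3 NaCl libraries all lay far above the other 6, and the lowest of them, replicate 3, was the shallowest library. The log2 fold change of pdc2 in NaCl against CK was 2.94 (SE 0.20, limma adjusted p = 7.18e-06), the 60th largest rise of the 22379 genes tested. With NaCl replicates 1 and 3 both left out, which stand apart by composition and depth, it was 3.09 (limma adjusted p = 9.01e-05); the lone NaCl library is then assumed to vary like the other groups.

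The second decarboxylase gene, pdc3, had 145, 164 and 162 FPKM in NaCl+MT seeds, 98.4, 163 and 167 in NaCl seeds, and 131, 155 and 145 in CK seeds. These ranges overlapped in every pair of groups, and NaCl replicate 1 was the lowest of all 9 libraries. Its fold change in NaCl against CK was -0.04 (SE 0.21, limma adjusted p = 0.900) with a 95% interval from -0.50 to 0.42. Without NaCl replicate 1 it was 0.20.

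Of the alcohol dehydrogenase genes, adh1 had 55.9, 87.8 and 101 FPKM in NaCl+MT seeds, 257, 216 and 240 in NaCl seeds, and 62.0, 73.8 and 67.5 in CK seeds. The lowest NaCl library was far above the highest of the other 6. The log2 fold change in NaCl against CK was 1.79 (SE 0.21, limma adjusted p = 0.000212), and without NaCl replicates 1 and 3 it was 1.66 (limma adjusted p = 0.00621).

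The paralog adh2 had 66.1, 97.6 and 81.0 FPKM in NaCl+MT seeds, 12.8, 41.2 and 15.2 in NaCl seeds, and 70.1, 166 and 126 in CK seeds. All 3 NaCl libraries were below the other 6, but adh2 was also the member with the widest spread, with a coefficient of variation of 68.1% in NaCl and 40.0% in CK. The fold change in NaCl against CK was -2.44 (SE 0.41, limma adjusted p = 0.00189). Leaving out NaCl replicates 1 and 3 together left a fold change of -1.45 (limma adjusted p = 0.0476).

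Of the lactate branch, LDH had 24.9, 24.5 and 22.4 FPKM in NaCl+MT seeds, 32.2, 24.3 and 16.6 in NaCl seeds, and 30.6, 27.7 and 37.9 in CK seeds. The NaCl values spread across those of both other groups, and the shallow NaCl replicate 3 was the lowest of all 9 libraries. The fold change in NaCl against CK was -0.42 (SE 0.21, 95% interval -0.89 to 0.05, limma adjusted p = 0.175). Of the 21 alternatives it was called only without NaCl replicate 1, at -0.64 (limma adjusted p = 0.0307), and adjusted p ran from 0.0307 to 0.515 over the alternatives.

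The comparison of NaCl+MT with NaCl asks what differed when melatonin accompanied the salt. With NaCl+MT pdc2 fell to 0.114 and adh1 to 0.343 of their NaCl means, and adh2 was 3.53-fold higher, so that 1 of the 5 genes rose and 2 fell, where 18.6% of all tested genes passed in either direction, 11.6% higher and 7.02% lower. The median of the 5 was 0.02, beside 0.03 over all tested genes. Groups did not overlap for 3 members, against 36.6% of all tested genes. This comparison uses the same NaCl libraries as that of NaCl with CK.

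The log2 fold change in NaCl+MT against NaCl was -2.71 for pdc2 (SE 0.20, limma adjusted p = 2.71e-05), the 33rd largest fall of the 22379 genes. It was -1.57 for adh1 (SE 0.21, limma adjusted p = 0.000714). It was 1.95 for adh2 (SE 0.41, limma adjusted p = 0.00884), a call that was lost when NaCl replicates 1 and 3 were both left out (0.95, limma adjusted p = 0.202). The NaCl library then remaining, replicate 2, has the highest adh2 value of its group. For pdc3 the difference was 0.17 (95% interval -0.29 to 0.63, limma adjusted p = 0.613), and for LDH 0.02 (-0.45 to 0.50, limma adjusted p = 0.959). Neither direction held when single libraries were left out: pdc3 was -0.075 without NaCl replicate 1, and LDH ran from -0.22 to 0.24.

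The comparison of NaCl+MT with CK asks whether seeds given both treatments differed from the control. None of the 5 genes passed limma's threshold, and 0 had an unadjusted p under 0.05; in this comparison 0.961% of all tested genes were called, 0.679% higher and 0.282% lower. The median of the 5 was 0.13, beside 0.07 over all tested genes. The log2 fold changes were 0.23 for pdc2 (95% interval -0.21 to 0.66), 0.13 for pdc3 (-0.33 to 0.59) and 0.22 for adh1 (-0.24 to 0.68). The interval of adh2 was the widest, from -1.40 to 0.41 around -0.49. LDH was the 1 member whose groups did not overlap, as was the case for 31.1% of all tested genes. Its NaCl+MT libraries were all below the lowest CK library, with a fold change of -0.40 (95% interval -0.87 to 0.08, limma adjusted p = 0.360).

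**Figure D2:**
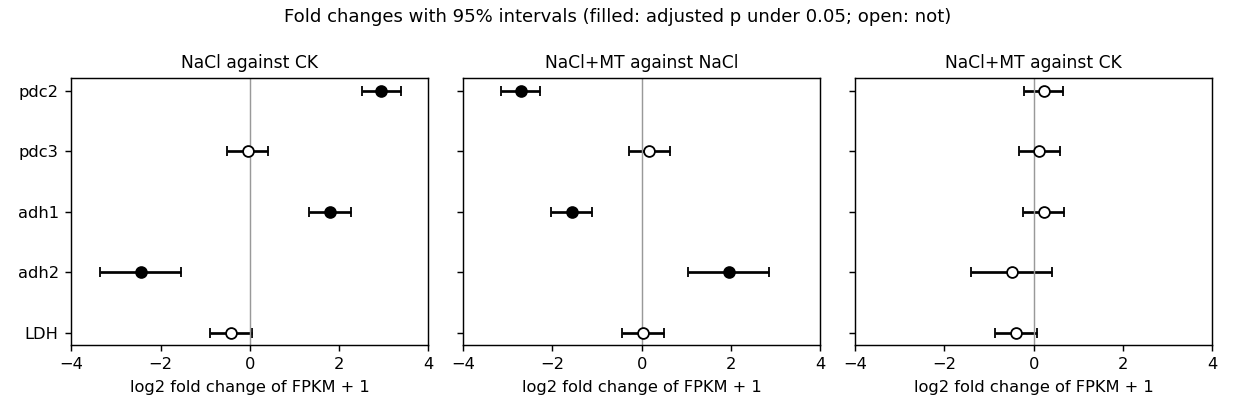
Log2 fold changes of FPKM + 1 (horizontal axes) of the 5 fermentation genes in the 3 comparisons, with 95% intervals from limma; filled points have an adjusted p under 0.05. pdc2, adh1 and adh2 are filled in the first 2 panels, and every interval in the panel of NaCl+MT against CK includes 0.

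The order of the members by level differed between the groups. In NaCl+MT seeds pdc3 was highest at 157 ± 10.1 FPKM (SD, n = 3), followed by adh2 at 81.6 ± 15.7, adh1 at 81.4 ± 23.1, LDH at 23.9 ± 1.35 and pdc2 at 2.70 ± 0.2997. The adh2 and adh1 values overlapped there, and the other neighbours did not. In NaCl seeds adh1 led at 237 ± 20.9 FPKM, followed by pdc3 at 143 ± 38.6, and LDH at 24.4 ± 7.84, pdc2 at 23.5 ± 5.22 and adh2 at 23.1 ± 15.7 overlapped. In CK seeds pdc3 at 144 ± 12.4 FPKM overlapped with adh2 at 121 ± 48.4, and adh2 with adh1 at 67.8 ± 5.88, although adh2 was above adh1 in 3 of 3 libraries. LDH at 32.1 ± 5.24 and pdc2 at 2.19 ± 0.574 followed without overlap. Within the tested genes of their own group, pdc3 exceeded 97.2% to 97.6% in all 3 groups, whereas pdc2 exceeded 20.5% in NaCl+MT, 79.6% in NaCl and 19.0% in CK.

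Within each enzyme the 2 member genes made up different parts of their sum. The summed FPKM of adh1 and adh2 was 163 ± 35.6 in NaCl+MT seeds, 261 ± 8.20 in NaCl seeds and 189 ± 54.2 in CK seeds (SD, n = 3). The adh1 share of that sum was 45.8%, 47.4% and 55.4% in NaCl+MT seeds, 95.3%, 84.0% and 94.0% in NaCl seeds, and 46.9%, 30.7% and 34.8% in CK seeds. In all 3 NaCl libraries most of the sum of adh1 and adh2 thus came from adh1, and the NaCl shares did not overlap with those of either other group. The gene adh1C, given below, is not part of this sum and averaged 22.3 FPKM in NaCl seeds. The NaCl sum was 1.38 times the CK mean, and the NaCl libraries did not overlap with the CK libraries. With 3 libraries against 3 an exact 2-sided permutation test cannot give a p below 0.10, which is the value found for the share and for the sum in NaCl against CK and in NaCl+MT against NaCl (adjusted over 12 tests, 0.20).

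Most of the pyruvate decarboxylase sum came from pdc3 in every library. The sum was 160 ± 10.1 FPKM in NaCl+MT seeds, 166 ± 35.4 in NaCl seeds and 146 ± 12.4 in CK seeds, and all 3 ranges overlapped (exact permutation p = 0.40 between NaCl and CK, and 0.90 between NaCl+MT and NaCl). The pdc2 share was 1.85%, 1.78% and 1.45% in NaCl+MT seeds, 21.7%, 13.7% and 9.51% in NaCl seeds, and 1.83%, 1.64% and 1.04% in CK seeds. The NaCl shares lay above the rest without overlap (exact permutation p = 0.10, the smallest possible).

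**Figure D3:**
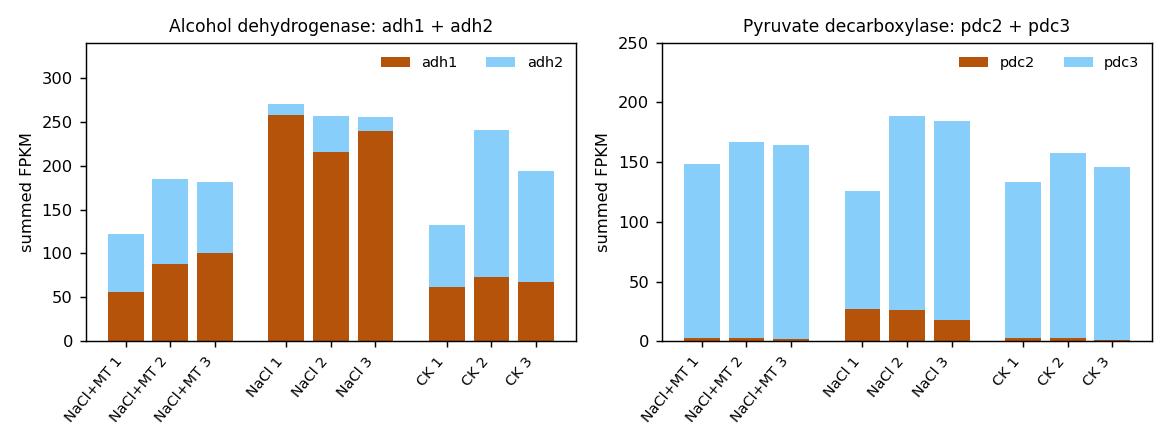
Summed FPKM (vertical axes, from 0) of adh1 and adh2 (left) and of pdc2 and pdc3 (right) in each library of NaCl+MT, NaCl and CK. In the NaCl bars adh1 takes 84.0% to 95.3% of the alcohol dehydrogenase sum, and pdc2 takes 9.51% to 21.7% of the decarboxylase sum.

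Ratios within a library, here of FPKM + 1, depend little on how libraries were scaled. The log2 ratio of adh1 to adh2 was higher by 4.24 in NaCl than in CK, with means of 3.49 ± 0.99 in NaCl and -0.74 ± 0.51 in CK (SD, n = 3; exact permutation p = 0.10). In NaCl+MT it was -0.027 ± 0.29, a difference from NaCl of -3.52 (exact permutation p = 0.10). The log2 ratio of pdc2 to pdc3 differed by 2.98 between NaCl and CK and by -2.88 between NaCl+MT and NaCl, again without overlap of the libraries. The log2 ratio of pdc2 to adh1 was -3.30 ± 0.35 in NaCl and -4.45 ± 0.29 in CK, a difference of 1.14 (exact permutation p = 0.10). The log2 ratio of LDH to pdc2 was 0.02 ± 0.18 in NaCl seeds and 3.38 ± 0.50 in CK seeds. Both genes thus stood at about the same FPKM in NaCl seeds. That log2 ratio was 2.76 ± 0.06 in NaCl+MT seeds, below every CK library (exact permutation p = 0.10). All 12 ratio tests had an adjusted p of at least 0.133. How the counting treated reads that fit both members of a pair is not given in the sources used here, so values of the paralogs are uncertain to that extent. In bulk seed RNA, fewer cells of a type and less RNA per cell cannot be told apart.

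Likeness of pattern was measured by Pearson's r of log2(FPKM + 1) over the 9 libraries, as a description, since the libraries of a group lie together. Among the 2017 tested genes with a RefSeq name, the patterns most like pdc2 were those of CNR2 (GRMZM2G151230, r = 0.99), a gene of the cell number regulator family, of ARGOS8 (GRMZM2G354338, 0.98) and of SEC14p (GRMZM2G704053, 0.98). CNR2 averaged 23.9 ± 5.51 FPKM in NaCl+MT, 199.8 ± 65.9 in NaCl and 23.5 ± 4.40 in CK seeds. Closest to adh1 were bZIP96 (GRMZM2G161009, 0.98), GNAT16 (GRMZM2G100872, 0.97) and the cystatin gene cc10 (GRMZM2G030717, 0.97). The last of them averaged 259 ± 93.4 FPKM in NaCl+MT, 787 ± 89.8 in NaCl and 193 ± 58.6 in CK seeds. Closest to adh2 were MYB30 (GRMZM2G171781, 0.97), the plasma membrane aquaporin gene pip2b (GRMZM2G092125, 0.96) and the annexin gene Ann5 (GRMZM2G172834, 0.96). Ann5 averaged 92.4 ± 10.8 FPKM in NaCl+MT, 24.6 ± 10.3 in NaCl and 98.6 ± 30.3 in CK seeds. For pdc3 the closest were d9 (0.92), GRF9 (0.91) and the gene listed as permease (GRMZM2G115635, 0.90), and for LDH tub6 (0.93), cyp10 (0.91) and gdh1 (0.90), none of which passed limma's threshold in NaCl against CK or in NaCl+MT against NaCl.

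The genes that feed pyruvate into fermentation were examined from lists of RefSeq symbols. The counts called in each list stand beside 26.0% of all tested genes called in NaCl against CK and 18.6% in NaCl+MT against NaCl; the lists are small, and nothing particular to a list is read from its count. Of 6 tested sucrose cleavage genes, 3 were higher and 2 lower in NaCl than in CK (median 0.24, beside 0.03 over all tested genes), and 2 were higher and 2 lower in NaCl+MT than in NaCl. The sucrose synthase gene sh1 (GRMZM2G089713), whose enzyme splits sucrose at low energy cost, had 79.4, 58.1 and 62.3 FPKM in NaCl+MT, 378, 257 and 225 in NaCl, and 41.9, 35.2 and 40.6 in CK seeds. Its NaCl libraries all lay far above the other 6. The fold change was 2.81 in NaCl against CK (SE 0.21, limma adjusted p = 1.17e-05) and -2.07 in NaCl+MT against NaCl (SE 0.21, limma adjusted p = 0.000139). A second sucrose synthase gene, sus1 (GRMZM2G152908), averaged 92.1 ± 5.60 FPKM in NaCl+MT, 105 ± 27.9 in NaCl and 54.2 ± 5.14 in CK seeds, and rose by 0.92 in NaCl against CK (limma adjusted p = 0.00500). In NaCl+MT against NaCl sus1 was not called (-0.16, limma adjusted p = 0.595). The cell wall invertase gene incw1 (GRMZM2G139300), the other of the 3 and, like sus1, named after its values were seen, averaged 66.7 ± 13.9 FPKM in NaCl+MT, 115 ± 5.33 in NaCl and 62.2 ± 7.11 in CK seeds. It rose by 0.88 in NaCl against CK (limma adjusted p = 0.00388) and fell by 0.80 in NaCl+MT against NaCl (limma adjusted p = 0.00899). The vacuolar invertase gene ivr2 (GRMZM2G089836), which hydrolyses sucrose, averaged 23.4 ± 6.58 FPKM in NaCl+MT, 8.63 ± 4.58 in NaCl and 47.9 ± 17.2 in CK seeds. It fell by 2.43 on the log2 scale in NaCl against CK (SE 0.38, limma adjusted p = 0.00127). In NaCl+MT against NaCl it was higher by 1.45 (limma adjusted p = 0.0240), a call lost without NaCl+MT replicate 2 (1.24, limma adjusted p = 0.0938) or 3 (1.50, limma adjusted p = 0.0625), with no filter on low values (limma adjusted p = 0.0553) and without NaCl replicates 1 and 3 (0.83, limma adjusted p = 0.213). A second cell wall invertase gene, INCW2 (GRMZM2G119689), averaged 2.36 ± 0.756 FPKM in NaCl+MT, 0.0720 ± 0.0174 in NaCl and 1.71 ± 0.749 in CK seeds. Its fold change was -1.30 in NaCl against CK (limma adjusted p = 0.00211) and 1.63 in NaCl+MT against NaCl (limma adjusted p = 0.000866). It passed the filter on low values only through NaCl+MT and CK libraries, so no conclusion is drawn from its tests. INCW2 is among the 2 lower and the 2 higher genes counted above. Its fold changes also depend on the pseudocount, reaching -3.31 and 3.80 with a pseudocount of 0.1. Another sucrose synthase gene, sus2 (GRMZM2G318780), is named to complete the 6. Its fold change was -0.40 in NaCl against CK (limma adjusted p = 0.157) and 0.32 in NaCl+MT against NaCl (limma adjusted p = 0.290).

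Of 16 tested glycolysis genes 5 rose and 0 fell in NaCl against CK (limma; 5 had an unadjusted p under 0.05), where 13.6% of all tested genes were higher and 12.4% lower, with a median of 0.18 beside 0.03 over all genes. In NaCl+MT against NaCl 5 fell and 0 rose (6 at an unadjusted p under 0.05; median -0.21, beside 0.03), where 7.02% of all tested genes were lower and 11.6% higher. The glyceraldehyde-3-phosphate dehydrogenase gene gpc4 (GRMZM2G176307) had 279, 323 and 316 FPKM in NaCl+MT, 964, 1344 and 938 in NaCl, and 332, 252 and 335 in CK seeds. Its NaCl values did not overlap with the rest, and it rose by 1.81 in NaCl against CK (SE 0.22, limma adjusted p = 0.000251) and fell by 1.80 in NaCl+MT against NaCl (SE 0.22, limma adjusted p = 0.000395). The glucose-6-phosphate isomerase gene phi1 is covered by 2 table entries of 1 RefSeq gene, so 2 of the 5 calls belong to it. The entry GRMZM6G477257 averaged 43.1 ± 14.4 FPKM in NaCl+MT, 148 ± 41.8 in NaCl and 27.8 ± 15.2 in CK seeds, and its fold change was 2.52 in NaCl against CK (limma adjusted p = 0.00198) and -1.78 in NaCl+MT against NaCl (limma adjusted p = 0.0163). The second of these calls was lost without NaCl+MT replicate 1 (-1.48, limma adjusted p = 0.0663) and without NaCl replicates 1 and 3 (-1.47, limma adjusted p = 0.188). The entry GRMZM2G065083 of phi1 averaged 198 ± 12.2 FPKM in NaCl+MT, 556 ± 77.5 in NaCl and 255 ± 18.9 in CK seeds. The enolase gene eno1 (GRMZM2G064302) averaged 473 ± 32.4 FPKM in NaCl+MT, 1063 ± 132 in NaCl and 454 ± 25.3 in CK seeds, and the fructokinase gene frk1 (GRMZM2G086845) 99.4 ± 4.88 FPKM in NaCl+MT, 178 ± 32.3 in NaCl and 93.0 ± 16.0 in CK seeds. Both passed in both comparisons and are named, after their values were seen, to complete the 5.

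Other lists held genes for the fate of pyruvate and acetaldehyde outside fermentation. None of 7 tested genes listed by symbol under pyruvate dehydrogenase and the citric acid cycle passed limma's threshold in NaCl against CK or in NaCl+MT against NaCl, and 0 had an unadjusted p under 0.05 in either. Symbols such as mdh and idh do not give the compartment or cofactor of the enzyme. The list may therefore hold forms from outside the cycle, and nothing about the cycle as a whole is read from it. The most abundant of them, idh2 (GRMZM5G829778, isocitrate dehydrogenase), averaged 278 ± 22.2 FPKM in NaCl+MT, 242 ± 39.7 in NaCl and 306 ± 19.2 in CK seeds. Of 7 aldehyde dehydrogenase genes, whose enzymes oxidise aldehydes to acids, 2 were lower in NaCl than in CK and 2 higher in NaCl+MT than in NaCl, where 12.4% and 11.6% of all tested genes were. The gene rf2c (GRMZM2G071021) had 18.6, 30.2 and 25.8 FPKM in NaCl+MT, 4.95, 9.88 and 3.39 in NaCl, and 15.5, 16.1 and 25.8 in CK seeds. It fell by 1.58 in NaCl against CK (SE 0.32, limma adjusted p = 0.00523) and rose by 1.95 in NaCl+MT against NaCl (SE 0.32, limma adjusted p = 0.00233). With NaCl replicates 1 and 3 both left out, the first difference was -0.85 (limma adjusted p = 0.127). The other was GRMZM2G146754, 1 of 2 entries of ALDH10A8, an aminoaldehyde dehydrogenase, at 42.9 ± 5.60 FPKM in NaCl+MT, 23.6 ± 9.73 in NaCl and 47.8 ± 6.76 in CK seeds. Its fold change was -1.07 in NaCl against CK (limma adjusted p = 0.0156; leaving out CK replicate 1 ended the call, at 0.0617), and 0.92 in NaCl+MT against NaCl (limma adjusted p = 0.0384, and 0.0128 to 0.122 over the alternatives, lost in 9 of 21). The second entry, GRMZM2G013214, had a fold change of 0.70 in NaCl against CK (limma adjusted p = 0.142).

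Of 7 genes of pyruvate and malate exchange, 1 rose and 1 fell in NaCl against CK, and 1 fell in NaCl+MT against NaCl, beside 26.0% and 18.6% of all tested genes called. The number that fell in NaCl against CK ran from 0 to 4 over the alternatives. The riser, the NADP-malic enzyme gene me3 (GRMZM2G085019), whose enzyme forms pyruvate from malate, had 2.83, 2.14 and 2.56 FPKM in NaCl+MT, 12.0, 119 and 68.7 in NaCl, and 2.43, 2.21 and 2.26 in CK seeds. The NaCl libraries differed widely among themselves but all exceeded the rest. The fold change was 3.86 in NaCl against CK (SE 0.61, limma adjusted p = 0.00129) and -3.77 in NaCl+MT against NaCl (SE 0.61, limma adjusted p = 0.00214). PPDK2 (GRMZM2G097457), a pyruvate phosphate dikinase gene, had 0.337, 0.399 and 0.301 FPKM in NaCl+MT, 1.33, 0.916 and 5.30 in NaCl, and 6.19, 8.96 and 3.82 in CK seeds. It fell by 1.20 in NaCl against CK (limma adjusted p = 0.0469), a call lost in 13 of 21 alternatives (0.0506 to 0.151 there), and by 2.38 in NaCl+MT against CK (limma adjusted p = 0.0263), lost in 8. PPDK2 passed the filter on low values only through NaCl and CK libraries, so no conclusion is drawn from its 2 comparisons with NaCl+MT. With no filter its call in NaCl+MT against CK was lost (limma adjusted p = 0.0770). In NaCl+MT against NaCl it differed by -1.18 (limma adjusted p = 0.0635), and 6 of 20 alternatives called it lower. Another dikinase gene, Ppdk1 (GRMZM2G306345), named after its values were seen, averaged 766 FPKM in NaCl+MT, 511 in NaCl and 873 in CK seeds. It differed by -0.75 in NaCl against CK (limma adjusted p = 0.0713) and by 0.56 in NaCl+MT against NaCl (limma adjusted p = 0.195). Between NaCl+MT and CK the Ppdk1 difference was -0.19 (limma adjusted p = 0.766). Of 2 haemoglobin genes, whose proteins bind oxygen and nitric oxide, Hb2 (GRMZM2G168898) rose by 1.64 in NaCl against CK (SE 0.25, limma adjusted p = 0.00113), with 45.4 ± 19.5 FPKM in NaCl+MT, 101 ± 18.8 in NaCl and 31.5 ± 0.943 in CK seeds. It fell by 1.20 in NaCl+MT against NaCl (limma adjusted p = 0.00849), a call lost without NaCl replicates 1 and 3 (-1.28, limma adjusted p = 0.0517). GLB1 (GRMZM2G067402), named to complete the pair, differed by 0.74 between NaCl and CK (limma adjusted p = 0.0625).

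Of 2 genes of alanine and glutamate metabolism, GAD (GRMZM2G017110), for glutamate decarboxylase, averaged 7.22 ± 1.97 FPKM in NaCl+MT, 2.47 ± 0.311 in NaCl and 5.72 ± 1.70 in CK seeds. It fell by 0.93 in NaCl against CK (limma adjusted p = 0.0125) and rose by 1.22 in NaCl+MT against NaCl (limma adjusted p = 0.00430). The first of these calls was lost without NaCl replicates 1 and 3 (-1.04, limma adjusted p = 0.0692). Of 2 genes of alternative oxidase and uncoupling, aox1 (GRMZM2G125669), whose oxidase bypasses part of the respiratory chain, averaged 1.99 ± 0.145 FPKM in NaCl+MT, 2.38 ± 0.709 in NaCl and 4.38 ± 0.385 in CK seeds. It fell by 0.69 in NaCl against CK (limma adjusted p = 0.0148), a call lost without CK replicate 1 or 3 (limma adjusted p = 0.0503 and 0.0507) or without NaCl replicates 1 and 3 (limma adjusted p = 0.217). A further gene with an alcohol dehydrogenase symbol, adh1C (GRMZM2G361662), averaged 19.8 ± 2.65 FPKM in NaCl+MT, 22.3 ± 1.99 in NaCl and 23.7 ± 7.87 in CK seeds (limma adjusted p = 0.917 for NaCl against CK). In NaCl+MT against CK, 1 of the 50 tested list genes passed, PPDK2, which passed the filter only through NaCl and CK libraries. Of all tested genes 0.961% passed in that comparison, and nothing is read from the count of 1 list gene. That count depended on the processing: aox1, at -0.84 (limma adjusted p = 0.0519), was called lower in 8 of 20 alternatives, and sh1, at 0.74 (limma adjusted p = 0.109), higher in 4 of 21. The number of sucrose cleavage genes called higher was 2 in those 4 alternatives.

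**Figure D4:**
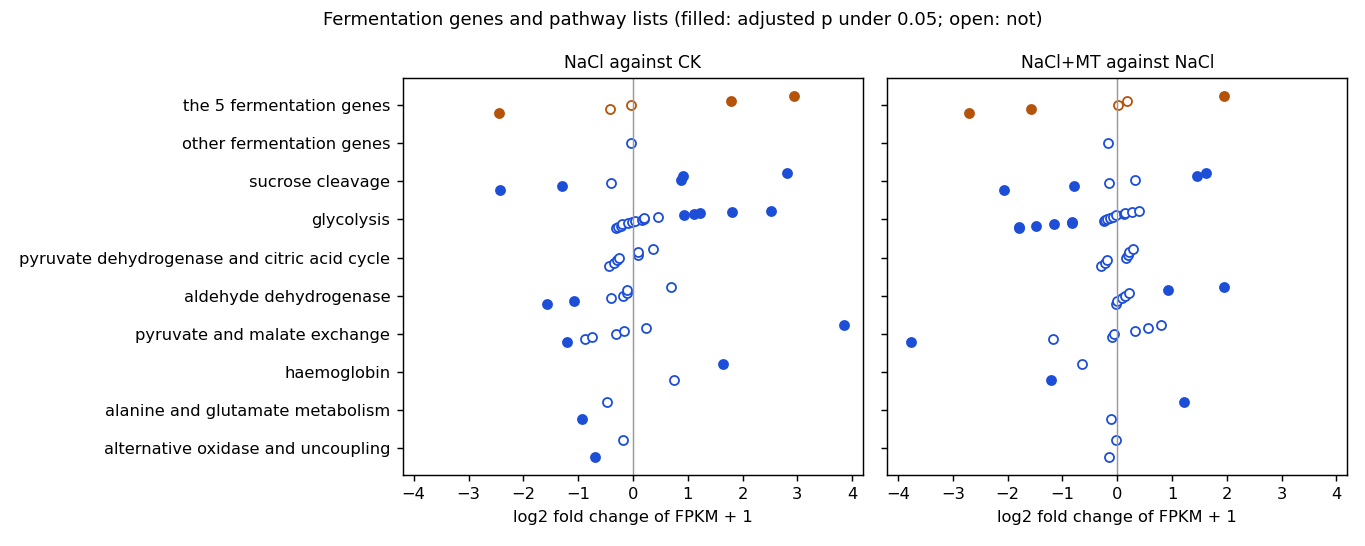
Log2 fold changes of FPKM + 1 (horizontal axes) of the 5 fermentation genes and of each tested gene of 9 pathway lists (rows) in NaCl against CK (left) and NaCl+MT against NaCl (right); filled points have an adjusted p under 0.05. In the glycolysis row the 5 filled points lie to the right of 0 on the left and to the left of 0 on the right; both panels use the same NaCl libraries.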

How the data were processed

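Total RNA of maize seeds was sequenced from NEB mRNA libraries, per the labels' protocols. The deposited table gives FPKM per gene and library, computed by the authors; HISAT2, featureCounts, DESeq2 and the build B73 RefGen_v3 are named, without roles or versions, per the submitters' processing notes. Read totals, strand setting and the handling of reads shared by paralogs are not given in the sources used here. FPKM values are not counts, so no count test was run.

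Genes reaching an FPKM of 1 in 3 or more libraries entered the test, made with limma 3.58.1 (R 4.3.3) on log2(FPKM + 1), with 3 group means over all 9 libraries, a mean-variance trend, 2-sided tests and Benjamini-Hochberg adjustment over all tested genes. Fold changes of low genes are understated on this scale. The fit was run on simulated data with independent normal noise and, for each gene, the same spread in every group. That setting is simpler than these data, so it checks the code and not the calls. Ratios, shares and sums within a library were compared by exact 2-sided permutation tests in SciPy 1.17.1. Groups and replicate numbers follow the labels, which call the replicates biological. Same-numbered libraries were not treated as pairs in the main fit.

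Names come from a RefSeq gene table of another assembly, so no coordinates are given; 18907 IDs of the table were found in it, 18386 with a single entry. The 5 genes, the pathway lists and the tests were chosen with earlier results of these data known. Matches whose names belong to clone labels or unrelated genes, such as homeobox genes, were dropped from the lists (37 against 16 kept for glycolysis, 14 against 2 kept for haemoglobin), and the names searched for like patterns were widened, after values had been seen; oxygen sensing, the last of 10 lists, then held no gene. From each list up to 2 called genes with the largest change in NaCl against CK and up to 2 in NaCl+MT against NaCl were named, or else the most abundant gene; for each of the 5 genes the 3 named genes with the highest r were given. Alternatives changed the pseudocount, the filter, the scaling, the trend, library weights, the replicate block, the libraries sharing the spread, and left out each library in turn. Leaving out NaCl replicates 1 and 3 together was chosen after seeing the data.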

Additional observations from a re-analysis of the deposited data

How the results depend on the processing

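The calls of pdc2 and adh1 in NaCl against CK and in NaCl+MT against NaCl, and of adh2 in NaCl against CK, held in all 21 alternatives, with the highest limma adjusted p at 0.000156 and 0.000354 for pdc2, 0.00621 and 0.0181 for adh1, and 0.0476 for adh2. None of the 5 genes was called in NaCl+MT against CK under any of them (lowest limma adjusted p 0.0864, for LDH). The adh2 call in NaCl+MT against NaCl was lost without NaCl replicates 1 and 3 (0.95, limma adjusted p = 0.202). Leaving out single libraries gave LDH -0.64 to -0.18 in NaCl against CK and -0.22 to 0.24 in NaCl+MT against NaCl, and pdc3 -0.17 to 0.20 and -0.075 to 0.30. Directions near 0 also turned for LDH in NaCl+MT against NaCl with median-ratio scaling (-0.025) and without NaCl replicates 1 and 3 (-0.022), and for pdc3 in NaCl against CK with quantile normalisation (0.062), array weights (0.040) and without those replicates (0.19), the last of which also gave -0.057 in NaCl+MT against NaCl. With a pseudocount of 0.1 the log2 ratio of pdc2 to adh1 differed by 1.57 in NaCl against CK, and that of LDH to pdc2 by -3.81 in NaCl against CK and 3.08 in NaCl+MT against NaCl.

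Genes called numbered 5808 in NaCl against CK, 4164 in NaCl+MT against NaCl and 215 in NaCl+MT against CK. In the same order the counts were 3684, 2605 and 123 with FPKM of at least 5, and 2446, 1641 and 1065 without NaCl replicates 1 and 3; single libraries left out gave 3849 to 6017, 2280 to 4220 and 6 to 873. The count in NaCl+MT against CK was 54 with no filter, 3663 with array weights, 72 with the replicate block and 1075 from the 6 libraries of the comparison; the cause was not tested. After each gene's group mean was subtracted, same-numbered libraries correlated at -0.37 to 0.15. These values do not settle whether the libraries were paired by design. The block changed no call of the 5 genes. The share of calls that were higher was 62.2% in NaCl+MT against NaCl, but 51.5% with quantile normalisation; in NaCl+MT against CK it was 70.7%, but 47.7% with median-ratio scaling and 45.5% with quantile normalisation.

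Among the other named genes, directions turned for adh1C in NaCl against CK with array weights (0.045) and single libraries left out (-0.24 to 0.21) and in NaCl+MT against CK with single libraries left out (-0.41 to 0.035), for gpc4 in NaCl+MT against CK (-0.092 with median-ratio scaling, -0.13 to 0.079 with single libraries left out), for me3 there (-0.066 with quantile normalisation), and for idh2 in NaCl+MT against NaCl (-0.041 without NaCl replicates 1 and 3). Of 2519 alternative values over 138 results, 2337 kept their direction and side of the threshold or, for counts and values with no test, stayed close to the value reported. With 3 libraries a group and depth known only in relative terms, low genes and differences near 0 are the least certain.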
